A study of Homo sapiens with 8 samples.

Results

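The replication-dependent histone genes encode the core histones H2A, H2B, H3 and H4 and the linker histone H1 that package newly made DNA. Members were the protein-coding genes with a symbol from H1-1 to H1-6, or starting with H2AC, H2BC, H3C or H4C and a number. The deposited tables held 35 of them among 57736 gene IDs: 6 of H1, 9 of H2A, 11 of H2B, 5 of H3 and 4 of H4. A further 35 genes of the rule had no ID matched in the tables and are not analysed here. H2BC12L, a copy outside the histone clusters, met the rule by its symbol and was kept.

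All libraries came from IMR90, a line of human fetal lung fibroblasts. An RNA-seq experiment held a control library (Ctrl) and a library with knockdown (KD) of ADAR1 (gene ADAR), an adenosine deaminase that edits double-stranded RNA. A separate RNA immunoprecipitation experiment used cells with shControl, shADAR1 or shHuR, where sh marks a short hairpin RNA, the shControl label names no target and HuR is the product of ELAVL1. Each of these 3 lines gave 1 RNA sample precipitated with an antibody against HuR and 1 input sample without antibody. HuR is an RNA-binding protein that prefers AU-rich elements. The title of the series sets these knockdowns in the context of p16 and senescence. Each of the 8 groups held 1 library, so a difference between a pair of libraries has no replicate check. Nothing in the labels gives the hairpin sequences, the number of clones or the time after knockdown, and no precipitate with a control antibody was analysed here.

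Replication-dependent histone mRNAs accumulate in S phase, when DNA is copied. NPAT switches the clustered genes on, and most of their mRNAs end not in a poly(A) tail but in a conserved stem-loop that SLBP (stem-loop binding protein) holds through processing, translation and decay. Some members are also known to give polyadenylated mRNAs, mainly in cells that no longer divide. The replication-independent histone genes H2AZ1 and H3-3A are polyadenylated throughout.

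The stem-loop, the feature that sets these mRNAs apart, is shown for some of the members described below, with examples of each form found. It was searched as a 6-base stem, a 4-base loop and the matching 6-base stem in GENCODE 29 transcripts, and was found in coding transcripts of 16 of the 35 members and of 40 of 19684 protein-coding genes. The pattern was settled after a first look at these transcripts. In each line the 16 bases of the stem-loop are in capitals, with 6 bases on each side.
H2AC6: cccaaaGGCTCTTTTCAGAGCCccccta
H2AC18: tcaaaaGGCTCTTTTCAGAGCCacccac
H2BC21: tccaaaGGCTCTTTTCAGAGCCacccac
H2BC13: cccaaaGGCTCTTTTCAGAGCCactcac
H2BC4: cccaaaGGCTCTTTTAAGAGCCacccag
H2BC5: cccaaaGGCTCTTTTAAGAGCCacgcat
H3C15: ccaaaaGGCTCTTTTCAGAGCCacccac
H4C8: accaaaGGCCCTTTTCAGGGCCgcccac
H4C11: ataaaaGGCCCTTTTCAGGGCCacccta
The form of H2AC6 was the most frequent, in 11 members. The form of H4C8 was shared by 3 members, all of H4, and that of H2BC5 by 2, both of H2B. GENCODE 29 transcripts ended 39 bases beyond the stem-loop in H2BC5 and 40 bases beyond it in H2BC13, but ran on for 1114 bases in H2AC6 and 1729 in H2BC21. Long models were also those of H2BC26 (1917 bases), H2BC18 (1479) and H3C15 (1154). Transcripts of the other 19 members did not hold the pattern. These include all 6 H1 genes, with models of 642 to 754 bases, and the longer model of H2AC11 (2250 bases). How far such models run beyond the coding sequence was not measured, so nothing follows from the absence of the pattern.

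Promoters are shown for a divergent pair that shares its upstream region, H2AC11 and H2BC11, for H1-2, the most abundant H1, and for H4C8, an exception in the HuR precipitates. The lines give the 150 bases before the start in RefSeq on GRCh38.p14. Capitals mark the CCAAT box, the TATAAA box, the octamer ATTTGCAT and the H1 box AAACACA on either strand.
H2AC11, chr6:27132893-27133042, plus strand: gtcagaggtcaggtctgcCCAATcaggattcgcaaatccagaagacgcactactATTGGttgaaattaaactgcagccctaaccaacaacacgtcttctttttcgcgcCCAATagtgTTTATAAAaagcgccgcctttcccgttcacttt
H2BC11, chr6:27132796-27132945, minus strand: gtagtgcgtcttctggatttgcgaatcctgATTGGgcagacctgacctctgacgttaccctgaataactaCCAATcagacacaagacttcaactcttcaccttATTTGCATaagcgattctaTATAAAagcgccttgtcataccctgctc
H1-2, chr6:26056471-26056620, minus strand: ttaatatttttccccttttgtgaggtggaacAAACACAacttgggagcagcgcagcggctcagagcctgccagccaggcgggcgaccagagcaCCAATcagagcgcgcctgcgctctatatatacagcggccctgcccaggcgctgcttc
H4C8, chr6:26285535-26285684, minus strand: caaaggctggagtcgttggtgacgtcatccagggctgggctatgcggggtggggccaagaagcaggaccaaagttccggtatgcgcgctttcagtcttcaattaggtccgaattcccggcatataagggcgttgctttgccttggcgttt
In the 250 bases before the start, on both strands, CCAAT was present in 29 of the 32 members with a promoter entry (90.6%), against 33% of 27305 promoters. TATAAA was present in 22 (68.8% against 11.1%), ATTTGCAT in 13 (40.6% against 1.66%) and AAACACA in 6 (18.8% against 4.95%). All 6 with AAACACA were H1 genes. All 13 with ATTTGCAT lay outside H1 and H4, with 6 in H2A, 6 in H2B and 1 in H3, which is H3C4. The entry used for H3C4 is the same window as that of H2AC7, so the 32 entries are 31 distinct windows, of which 12 held ATTTGCAT and 28 CCAAT. The 3 H4 promoters lacked CCAAT, and all 3 held GGTCC, which was present in 8 members (25%) against 40.4% of promoters. Of the other letters searched, TATA, which overlaps TATAAA, was present in 30 members (93.8% against 28%), TTTCGCGC in 5 (15.6% against 0.469%) and GGCGGGAA in 1 (3.12% against 2.77%). A match is only a run of letters, and the 4 in capitals were picked from the 8 searched after their counts were seen.

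The libraries held 28390935 to 50711218 counts. The knockdown libraries held less of the targeted mRNA than their controls: ADAR by 7.01-fold in the RNA-seq and 2.96-fold in the inputs, and ELAVL1 by 6.65-fold in the shHuR input. All 10 fibroblast markers were found, at a summed 2576 to 12745 CPM (counts scaled to the library total). Epithelial markers summed to 0.606 to 15.3 CPM with KRT5 and SFTPC at 0, and leukocyte markers to 0.0513 to 5.39 CPM with CD3E at 0. The highest leukocyte sum was that of the shADAR1 input, where CD14 had 152 counts against 1 in the shControl input (log2 ratio 7.72, interval 5.22 to 13.03) and 15 in the shHuR input. Endothelial markers summed to 3.7 to 88.8 CPM with CDH5 at 0. They stood at 54.2 and 88.8 CPM in the RNA-seq control and knockdown, and at 19.4, 73.1 and 37 CPM in the shControl, shADAR1 and shHuR inputs. In the shControl and shADAR1 inputs TEK made up most of the sum, at 641 and 2049 counts. The other markers did not rise as a set there, with VWF at 70 and 25 counts and KDR at 0 and 2. The part of these cell type markers in the results was not tested.

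Histone mRNAs made up a larger portion of the knockdown library than of the control in the RNA-seq, and a smaller portion of both knockdown inputs. Members summed to 1502 CPM in the RNA-seq control (95% Poisson interval 1490 to 1514) and to 3453 in the knockdown (3436 to 3469). The shControl input held 1712 CPM (1699 to 1726), the shADAR1 input 816 (805 to 826) and the shHuR input 705 (696 to 714). The HuR precipitates held 216 (211 to 220), 144 (141 to 148) and 182 (177 to 187) in the same order of lines, all below the inputs. These intervals, and all those given below, cover counting error only. In such bulk samples, fewer cells in S phase and less histone mRNA in each cell cannot be told apart.

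**Figure D1:**
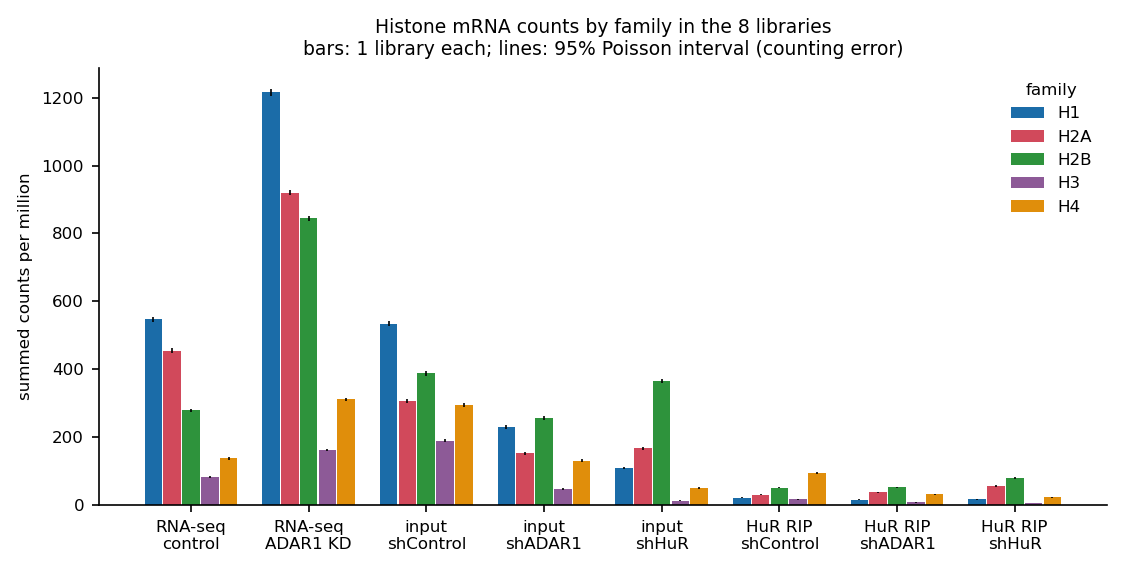
Summed CPM of each histone family (bars, 1 library each) with the 95% Poisson interval (thin lines). H1 reaches 1216 CPM in the RNA-seq knockdown against 547 in its control, and H2B sums to 366 CPM in the shHuR input, of which H2BC12 gives 255, against 388 in the shControl input, of which it gives 142.

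The makeup of the pool also shifted between inputs. H2B took 22.6% of the members' counts in the shControl input, 31.4% in the shADAR1 input and 51.9% in the shHuR input. H1 took 31.2%, 28.1% and 15.5%, and H3 took 11.1%, 5.76% and 1.73%. A single gene carried the H2B value of the shHuR input, where H2BC12 held 8873 of the 12759 H2B counts and H2BC21 a further 1873.

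Per unit of length, the RNA-seq control was led by H4C8 (469 FPKM, which sets fragments against gene length and depth), the linker histone gene H1-2 (443 FPKM) and H2AC18 (401 FPKM). In the knockdown, the H2B gene H2BC5 led at 889 FPKM, up from 246 FPKM in the control. H4C8 followed at 760 FPKM, H1-2 at 719 FPKM and H2AC18 at 716 FPKM. Summed over members, the level was 4296 FPKM in the control and 8459 FPKM in the knockdown. Replication-independent histones, 12 genes in all, summed to 1026 and 1394 FPKM.

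**Figure D2:**
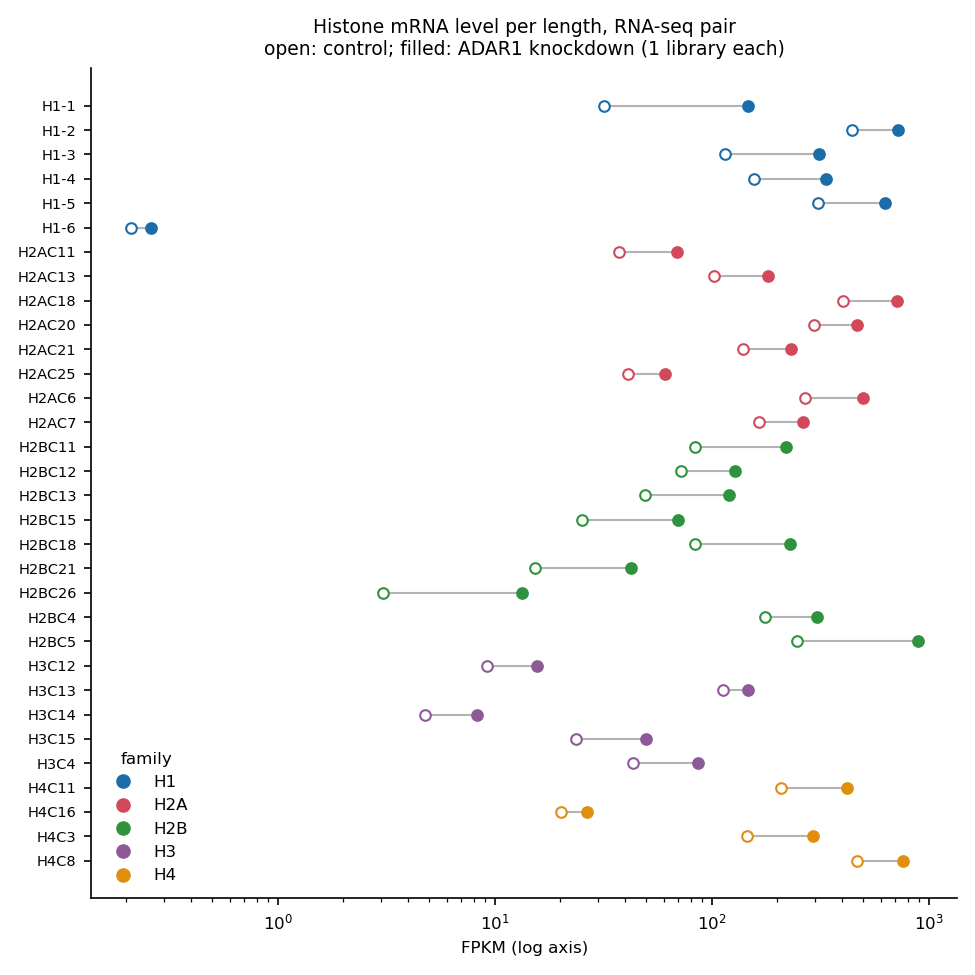
FPKM (log axis) of each member in the RNA-seq control (open) and ADAR1 knockdown (filled), coloured by family; H2AC1, H2BC1 and H2BC12L, listed at 0 in both, are not drawn. Every filled point lies to the right of its open point, and H2BC5 reaches 889 FPKM.

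Low counts limited some members. H2AC1 and H2BC1, whose proteins belong to the testis, were at 0 counts in all 8 libraries. H1-6, the testis linker histone, had 0 to 7 counts and H2BC12L 0 to 32, so 31 members reached 50 counts in at least 1 library. H2AC7 and H3C4 share 98% and 100% of their exon length with another annotated gene, and H3C12 shares 44.6%. H3C14 and H3C15 are near-identical copies that have identical counts in all 6 libraries of the precipitation experiment but not in the RNA-seq (262 and 1313 counts in the control). H2AC18 also has a near-identical copy, H2AC19, that was not analysed here. The values of these 6 genes are therefore uncertain. H3C13 was handled as a further near-identical copy of H3C14 and H3C15 in an alternative below, so its own values carry the same limit.

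The RNA-seq pair asks how loss of ADAR1 changed RNA levels. Counts were scaled by the trimmed mean of M values (TMM), and a gene was called higher or lower at 2-fold or more with at least 50 counts in either library. Calls, medians and ranges used a prior count of 2, whereas single genes are given as plain ratios with an exact 95% interval. Of the 31 members with such counts, 20 (64.5%) were higher in the knockdown and 0 lower, against 8.31% higher and 7.71% lower among all 13235 genes. Their median log2 ratio was 1.05, against -0.01 for all genes. All 32 members with any count lay above 0. Only H2BC26 reached 50 counts in the knockdown alone.

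Short genes lay higher in this pair, and of 32 members with a length from the files 27 were under 600 nt in effective length. The median was 0.56 over the 1028 other genes under 600 nt and -0.06 over the longer ones. With the trend over transcript length removed, 9 of 31 members were higher and the median was 0.50. With deposited FPKM in place of counts, 13 were higher and the median was 0.90, against -0.00 for all genes. Shares of all genes called are not given for either setting, so the 9 and 13 have no background beside them.

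Among linker histones, 4 of 5 were higher, with a median of 1.2. H1-1, a minor linker histone, had 670 counts in the control and 4325 in the knockdown, a 4.93-fold difference (log2 ratio 2.30, interval 2.18 to 2.42). H1-3 had 2389 and 9155 counts (1.55, 1.48 to 1.61), and H1-5 had 6597 and 18799 (1.12, 1.08 to 1.16). H1-2, which is also known in a polyadenylated form, was the exception, at 8445 and 19379 counts (0.81, 0.77 to 0.85).

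H2B genes stood highest, with 7 of 9 called higher and a median of 1.60. H2BC5 had 2800 counts in the control and 14909 in the knockdown, 4.07-fold higher (2.02, 1.96 to 2.08). H2BC26, a sparse gene, had 25 and 170 counts (2.38, 1.77 to 3.04). H2BC12, another gene with a described poly(A) form, lay just under 2-fold at 1632 and 4025 counts (0.91, 0.83 to 1.0).

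H2A genes lay close to 2-fold in TMM-scaled counts, with 5 of 8 called and a range from 0.77 to 1.08. With the length trend removed none was called. H2AC11 then stood at 0.94 and the others ranged from 0.03 (H2AC25) to 0.53 (H2AC6). H2AC18 had 4782 and 12670 counts (1.02, 0.97 to 1.06), and H2AC6 had 4202 and 11640 (1.08, 1.03 to 1.13). Of the H3 genes, 1 of 5 was called, H3C15 (1313 and 3673 counts; 1.09, 1.0 to 1.19), and H3C13 was among the lowest members (748 and 1586 counts; 0.69, 0.57 to 0.82). With the length trend removed, H3C13 was at -0.16. Of the H4 genes, 3 of 4 were higher. H4C11 had 1109 and 3814 counts (1.39, 1.30 to 1.49), while H4C16 was the lowest member at 283 and 538 counts (0.54, 0.33 to 0.75), or -0.08 with the length trend removed.

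**Figure D3:**
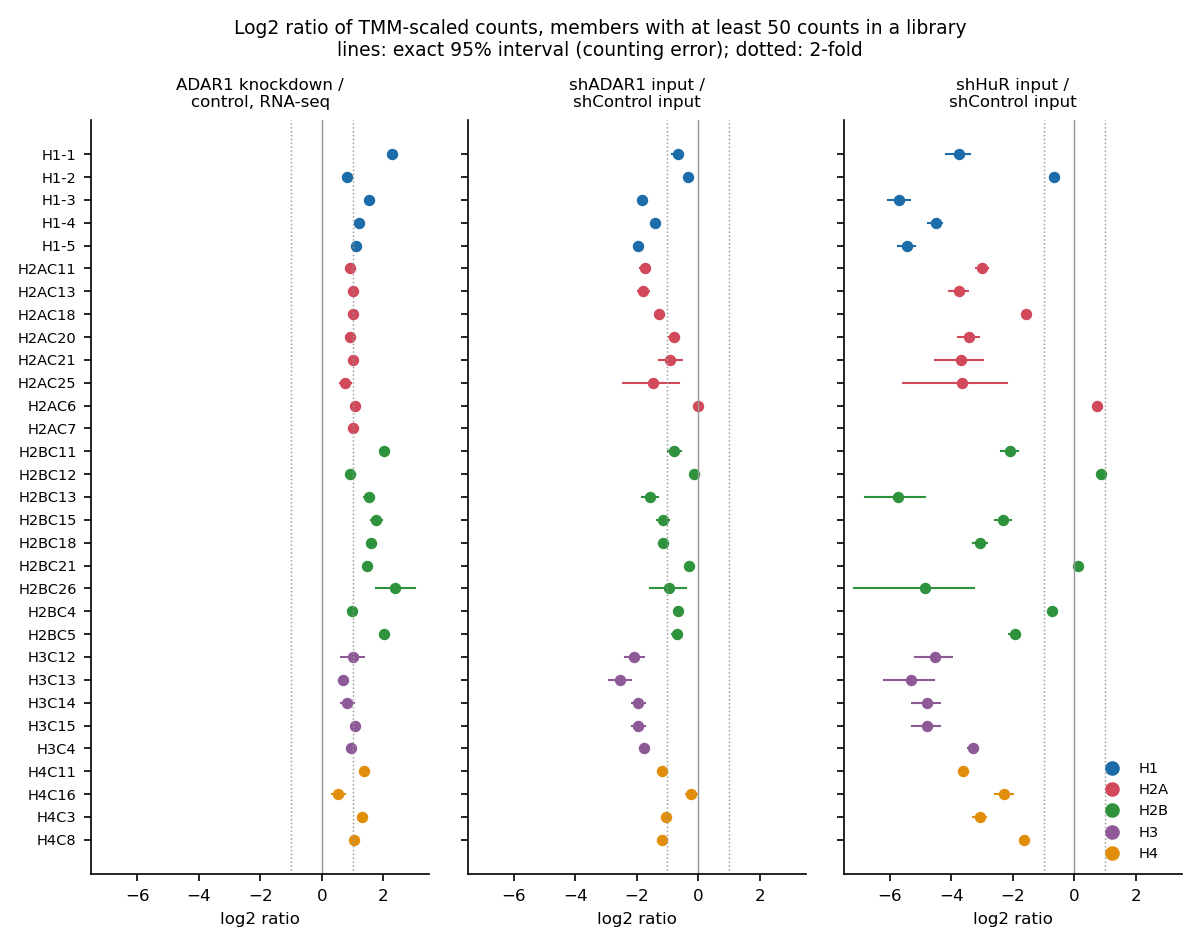
Log2 ratio of TMM-scaled counts of each member in the RNA-seq pair and in the shADAR1 and shHuR inputs against the shControl input, with exact 95% intervals for counting error; dotted lines mark 2-fold. All points lie above 0 in the RNA-seq pair, 29 of 30 lie below 0 in the shADAR1 input, and H2AC6, H2BC12 and H2BC21 alone lie above 0 in the shHuR input.

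In the inputs, ADAR1 knockdown went with lower histone mRNA. Of 30 members with enough counts, 18 (60%) were lower in the shADAR1 input than in the shControl input and 0 higher, against 10.6% lower and 8.94% higher among 13192 genes. The median was -1.15 against -0.04 for all genes, and 29 of 30 lay below 0. Of the 10 fibroblast markers 4 were higher in the shADAR1 input and 0 lower (median 0.66), beside the CD14 and endothelial values above, and their part in the members' values was not tested. The 810 other genes under 600 nt had a median of -0.37. With the length trend removed, 11 members were lower and their median was -0.70. The share of all genes called lower at that setting is not given here. H2AC25 and H2BC26 reached 50 counts in the shControl input alone. Both comparisons concern ADAR1, but they used different libraries and their directions for histone genes were opposite.

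H3 genes differed most, with all 5 lower and a median of -1.93. H3C13 had 599 counts with shControl and 75 with shADAR1, 5.76-fold lower (-2.53, -2.89 to -2.18). H3C12 had 628 and 108 counts (-2.07, -2.38 to -1.77). Of the H1 genes, 3 of 5 were lower: H1-5 had 5174 and 974 counts (-1.94, -2.04 to -1.84) and H1-3 had 3705 and 759 (-1.82, -1.93 to -1.70), whereas H1-2 had 5758 and 3273 (-0.34, -0.40 to -0.28).

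Of the H4 genes, 3 of 4 were lower, among them H4C11 (4887 and 1552 counts; -1.18, -1.27 to -1.10) and H4C8 (3602 and 1161 counts; -1.16, -1.26 to -1.07). Of the H2A genes, 4 of 7 were lower, and of the H2B genes 3 of 9. H2AC6 did not differ from the shControl input beyond counting error (2645 and 1916 counts; 0.01, -0.08 to 0.09; -0.09 by total counts). H2BC12 had 5211 and 3398 counts (-0.14, -0.21 to -0.08). None of the 6 members with described poly(A) forms was called, at a median of -0.33, and 18 of the other 24 were lower, at a median of -1.32.

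The shHuR input held the least of most histone mRNAs. Of 30 members with enough counts, 25 (83.3%) were lower than in the shControl input and 0 higher, against 15.9% lower and 12% higher among 13390 genes. The median was -3.21 against -0.03 for all genes. Of these 30, 8 reached 50 counts in the shControl input alone, and passed only through the library where they were high. They were H2AC21, H2AC25, H2BC13, H2BC26, H3C12, H3C13, H3C14 and H3C15. The 851 other genes under 600 nt had a median of -0.22, and with the length trend removed 25 members were still lower. The share of all genes called lower at that setting is not given here. The shControl input served both input comparisons, so their values are not independent.

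H1-3 had 3705 counts with shControl and 66 with shHuR, 52.3-fold lower (-5.71, -6.08 to -5.36). H2BC13 had 572 and 10 counts, 53.3-fold lower (-5.74, -6.81 to -4.85). H1-5 had 5174 and 110 counts (-5.45, -5.74 to -5.18). The 5 H3 genes lay between -5.14 and -3.29, and H3C15 had 1285 and 43 counts (-4.80, -5.27 to -4.36). Of the H4 genes, which were all lower, H4C11 had 4887 and 373 counts (-3.61, -3.77 to -3.46) and H4C8 had 3602 and 1078 (-1.64, -1.74 to -1.54). Of the 9 H2B genes with enough counts, 6 were lower, at a family median of -2.08.

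Members with described poly(A) forms lay above this range. Of those 6 genes, 1 was called lower, with a median of -0.27, while all 24 others with enough counts were lower, at -5.67 to -1.57 with a median of -3.57. H2BC12 had 5211 counts with shControl and 8873 with shHuR (0.87, 0.82 to 0.92), and H2AC6 had 2645 and 4113 (0.74, 0.67 to 0.81). H2BC21 had 1861 and 1873 counts (0.11, 0.02 to 0.20). H1-2 had 5758 and 3408 counts (-0.66, -0.72 to -0.59) and H2BC4 had 2137 and 1207 (-0.72, -0.83 to -0.62). H2BC5 was the exception, at 1329 and 324 counts (-1.94, -2.12 to -1.76). This list was chosen with earlier results of these data known, so the split is a description. Of the 11 members with models running on at least 100 bases beyond the stem-loop, 8 were lower in the shHuR input (72.7%, median -2.32). All 5 with models ending nearer the stem-loop were lower (median -3.60), against 15.9% of all genes. The tables count all mRNA forms of a gene together, and whether the libraries were enriched for poly(A) RNA is not given in the sources used here.

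**Figure D4:**
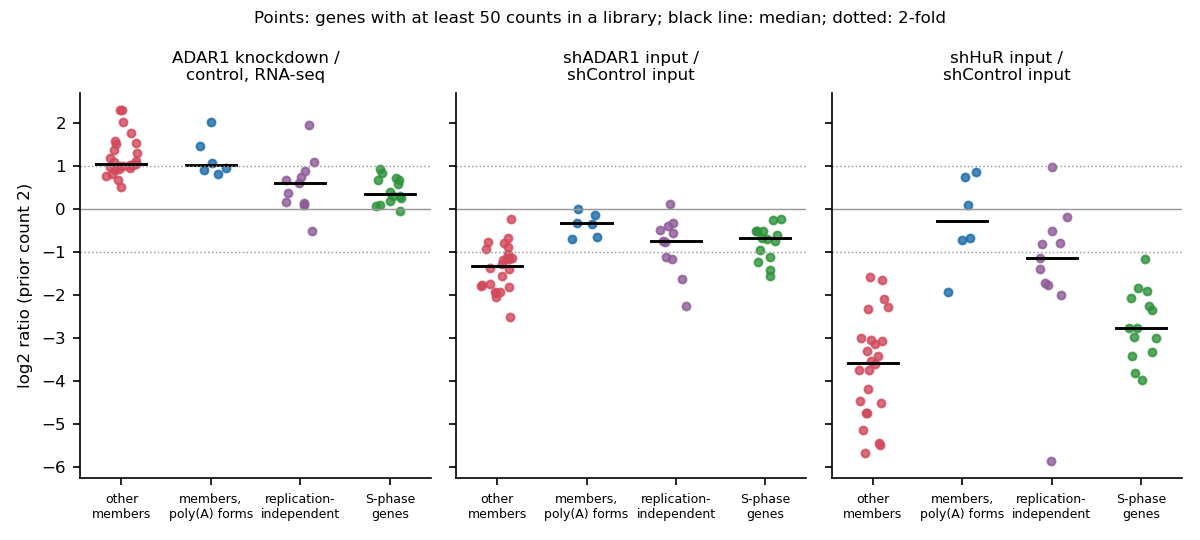
Log2 ratios (prior count 2) of members without and with described poly(A) forms, replication-independent histone genes and S-phase genes in 3 comparisons; points are genes, black lines medians, dotted lines 2-fold. In the shHuR input the other members have a median of -3.57, those with poly(A) forms -0.27 and the S-phase genes -2.75.

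Divergent pairs share an upstream region but did not always share a ratio, given here with the prior count of 2. H2AC20 and H2BC21, whose starts lie 236 bases apart, were at -3.41 and 0.11 in the shHuR input. H2AC6 and H2BC4, 246 bases apart, were at 0.74 and -0.72. H2AC13 and H2BC13, 244 bases apart, were both called higher in the RNA-seq knockdown (1.01 and 1.53) and lower in the shADAR1 input (-1.78 and -1.55) and the shHuR input (-3.74 and -5.49). H2AC11 and H2BC11, 248 bases apart, were at 0.91 and 2.03 in the RNA-seq pair and at -3.00 and -2.08 in the shHuR input.

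A test of ADAR1 knockdown combined the RNA-seq libraries with the inputs of shControl and shADAR1, 4 libraries in all, with the experiment as block. No member of the 32 tested passed edgeR's quasi-likelihood test with Benjamini-Hochberg adjustment (0 rose, 0 fell), and all adjusted p-values were 0.9998. Over all genes, 0.0813% rose and 0.0125% fell. At an unadjusted p under 0.05 the count of members was also 0, and DESeq2 with the same block called 0. Fitted log2 changes of members had a median of 0.08. H1-3 stood at -0.13 (SE 0.77) and H2BC13 at 0.01 (SE 0.77). The fit had 1 residual degree of freedom, and ADAR itself stood at -2.18 (SE 0.50, edgeR adjusted p = 0.275).

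HuR precipitates were poor in histone mRNA relative to their inputs. Over the 3 lines, with the line as block, 21 of 32 members fell in precipitate against input (65.6%) and 0 rose by edgeR's quasi-likelihood test, against 31.3% of all genes that fell and 30.3% that rose. The 32 tested members had a median log2 change of -2.03, against -0.11 for all genes. Other short genes were also low in the precipitates, with values by line given below. DESeq2 also called 21 lower and 0 higher. At an unadjusted p under 0.05 there were 22 members. Without the block 12 fell, of 28 tested. No precipitate from a control antibody was analysed here, so recovery is relative to all other RNAs of the same precipitate.

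All 5 H1 genes tested fell, and H1-1 had the most negative value among them (log2 change -3.31, SE 0.39, adjusted p = 5.64e-05 by edgeR). H1-3 fell by 2.96 (SE 0.44), H1-2 by 2.89 (SE 0.39) and H1-5 by 2.59 (SE 0.57) on the log2 scale. Among H2A genes 5 of 8 fell, with H2AC21 at -3.79 (SE 0.61) and H2AC20 at -2.58 (SE 0.41). Among H2B genes 4 of 10 fell, with H2BC12 at -2.91 (SE 0.32) and the sparse H2BC12L at -4.34 (SE 1.32). All 5 H3 genes fell, with H3C13 at -2.57 (SE 0.54), and so did 2 of 4 H4 genes, with H4C3 at -2.66 (SE 0.66) and H4C11 at -2.39 (SE 0.62).

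Some members were not depleted by the test. H4C8 stood at 0.16 (SE 0.30, adjusted p = 0.666 by edgeR), H2BC5 at 0.22 (SE 0.35, adjusted p = 0.605) and H2BC18 at -0.08 (SE 0.67, adjusted p = 0.925). The value of H2BC18 averages unlike lines, with plain log2 ratios of -1.94 in shControl, -0.44 in shADAR1 and 2.21 in shHuR. With total counts in place of TMM, H4C8 fell by 0.80 on the log2 scale (edgeR adjusted p = 0.042) and 26 members fell in all. The share of all genes that fell at that setting is not given here. H2AC11 stood at 0.20 (SE 0.74, adjusted p = 0.829) and depended on the lines: it fell by 0.97 without the shHuR line (edgeR adjusted p = 0.00667) and rose by 1.36 without the shControl line (edgeR adjusted p = 0.012).

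By line, depletion was deepest in shControl. There 27 of 30 members (90%) were lower in the precipitate and 0 higher, against 38.4% lower and 30.7% higher among 13309 genes, with a median of -3.13 against -0.25. In shADAR1, 20 of 28 (71.4%) were lower and 0 higher, against 37.5% and 30%, with a median of -2.05 against -0.26. In shHuR, 8 of 22 (36.4%) were lower and 4 (18.2%) higher, against 25.4% and 25.5%, with a median of -0.50 against -0.26. The shHuR shares were close to the background.

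Scaling mattered here. Total counts in place of TMM moved the median over all genes by -0.87, -0.86 and -0.99 in shControl, shADAR1 and shHuR. The median gene was then itself past 2-fold lower, at -1.11, -1.11 and -1.25. Members lower at that setting numbered 29, 25 and 15, and members higher 0, 0 and 2. With the length trend removed, the medians of members were -1.51, -0.64 and 0.50, so the direction in shHuR turned. Members lower numbered 19, 12 and 2 against 3, 4 and 7 higher. Shares of all genes called are not given for either setting, so these counts have no background beside them. Other genes under 600 nt had medians of -2.25, -2.05 and -1.26 in the 3 lines by TMM. The members' TMM median was below theirs in shControl (-3.13), the same in shADAR1 (-2.05) and above theirs in shHuR (-0.50). Members that reached 50 counts in the input or precipitate alone numbered 5, 8 and 5.

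**Figure D5:**
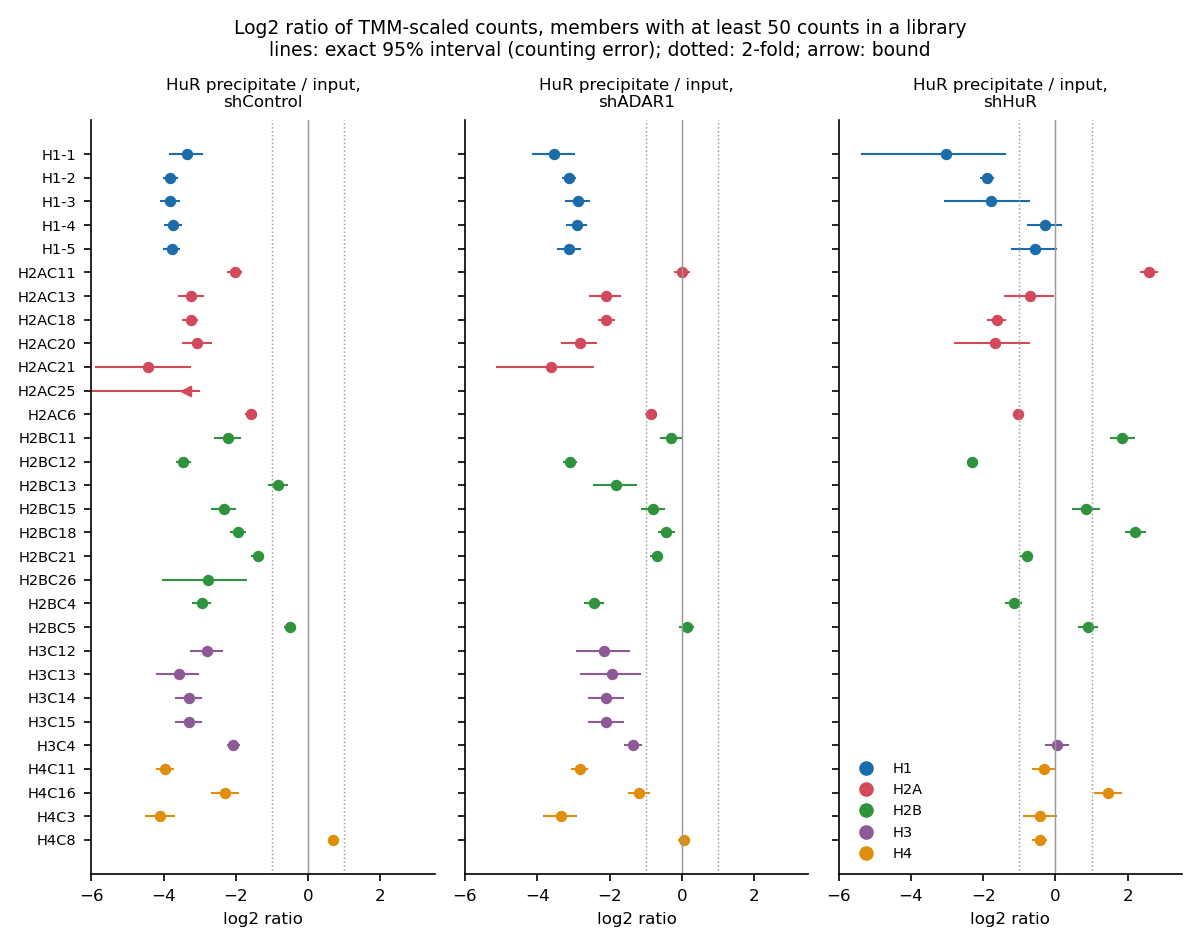
Log2 ratio of HuR precipitate to input for each member in the shControl, shADAR1 and shHuR lines, with exact 95% intervals for counting error; the arrow is a bound against a floor of 3 counts. Most points are below -1 in shControl and shADAR1, and H4C8 alone lies above 0 in shControl (0.70 by TMM, -0.17 by total counts).

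H4C8 was the member best recovered in shControl, with 3602 counts in the input and 3394 in the precipitate (0.70, 0.64 to 0.77; -0.17 by total counts). It had 1161 and 1036 counts in shADAR1 (0.05, -0.07 to 0.17; -0.81 by total counts) and 1078 and 334 in shHuR (-0.44, -0.62 to -0.26; -1.43 by total counts). With the length trend removed it stood at 2.70, 1.79 and 0.63 in the 3 lines, so its direction in shHuR turned. H4C11, which carries the same stem-loop form, had 4887 and 182 counts in shControl (-3.96, -4.18 to -3.74), so the shared form went with very different recoveries.

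The recovery of H2BC5 depended on the scaling. It had 1329 and 547 counts in shControl (-0.49, -0.64 to -0.35; -1.36 by total counts), 589 and 555 in shADAR1 (0.13, -0.04 to 0.30; -0.73 by total counts) and 324 and 253 in shHuR (0.90, 0.65 to 1.14; -0.10 by total counts). With the length trend removed it stood at 1.24, 1.70 and 1.94, past 2-fold higher in each line. Other members with described poly(A) forms were depleted. H2BC12 had 5211 and 275 counts in shControl (-3.45, -3.63 to -3.28), 3398 and 343 in shADAR1 (-3.10, -3.26 to -2.94) and 8873 and 748 in shHuR (-2.32, -2.43 to -2.21). H1-2 had 5758 and 238 counts in shControl (-3.81, -4.0 to -3.62), 3273 and 326 in shADAR1 (-3.12, -3.28 to -2.95) and 3408 and 384 in shHuR (-1.90, -2.05 to -1.74).

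With the prior count of 2, the lowest in shControl were H2AC25 (-4.48), at 54 input counts and 0 in the precipitate, and H2AC21 (-4.12). H2AC21 had 222 and 6 counts, a plain ratio of -4.42 (-5.88 to -3.27), or 21.4-fold lower. For H2AC25 the counts give only a bound against the floor of 3 counts, at least 10.4-fold lower. Plain ratios of some other members were past that bound, such as H4C3 (17-fold) and H4C11 (15.5-fold), so the rank of H2AC25 is uncertain. In shADAR1 the lowest with the prior count of 2 were H1-1, at 387 and 29 counts (-3.53, -4.12 to -2.98), and H4C3, at 604 and 51 (-3.35, -3.80 to -2.94). As a plain ratio H2AC21 was lower still, at 86 and 6 counts (-3.63, -5.12 to -2.45). In shHuR, H1-1 had 58 input counts and 3 in the precipitate, a ratio of -3.02 with an interval from -5.34 to -1.40.

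Members higher in the shHuR precipitate than in its input were H2AC11, H2BC11, H2BC18 and H4C16. H2AC11 had 232 input counts and 588 in the precipitate (2.59, 2.37 to 2.82), after 2001 and 283 in shControl (-2.03, -2.22 to -1.85) and 433 and 377 in shADAR1 (0.01, -0.19 to 0.21; -0.85 by total counts). Its divergent partner H2BC11 had 135 and 204 counts in shHuR (1.85, 1.53 to 2.17). H2BC18 had 172 and 333 counts (2.21, 1.94 to 2.48), and H4C16 had 124 and 143 (1.46, 1.10 to 1.82). By total counts H2AC11 and H2BC18 stayed over 2-fold (1.59 and 1.2), and H2BC11 and H4C16 did not (0.84 and 0.45). For each of these 4 genes the shHuR precipitate held more counts than the shControl precipitate, and the shHuR input fewer than the shControl input.

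No member had a mean log2 enrichment of at least 1, so none could be called for a difference in enrichment between lines at 1.5-fold. As values, the difference of shHuR from shControl was 4.63 for H2AC11 (interval 4.34 to 4.91), 1.14 for H2BC12 (0.93 to 1.34) and -1.14 for H4C8 (-1.33 to -0.95). The difference of shADAR1 from shControl was 2.04 for H2AC11 (1.78 to 2.31), 0.36 for H2BC12 (0.12 to 0.59) and -0.66 for H4C8 (-0.80 to -0.52).

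Genes that make and process histone mRNA were mostly not called. In the RNA-seq knockdown 0 of the 22 in the list were higher and 1 lower, at a list median of -0.11. CASP8AP2, a partner of NPAT at histone genes, was the 1 lower (2962 and 1921 counts; -1.01, -1.10 to -0.93). NPAT had 1603 and 1099 counts (-0.93, -1.05 to -0.82), and SLBP had 3110 and 4176 (0.04, -0.03 to 0.10). In the shADAR1 input 0 of 22 were called, with NPAT at 0.62 and SLBP at -0.23. In the shHuR input 2 were lower, at a list median of -0.06: CCNE2, cyclin E2 (163 and 18 counts; -3.08, -3.87 to -2.37), and ERI1, an exonuclease that trims histone mRNA (1336 and 470 counts; -1.41, -1.56 to -1.25). SLBP stood at -0.32 and NPAT at 0.10 there. In the precipitates SLBP mRNA fell by 1.89 on the log2 scale over the 3 lines (edgeR adjusted p = 0.00101), while NPAT stood at 0.43 (edgeR adjusted p = 0.222).

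S-phase genes were lower in the shHuR input as well. All 14 of the list were lower there, with a median of -2.75. RRM2, a subunit of ribonucleotide reductase, had 2926 and 172 counts (-3.99, -4.22 to -3.77), and PCNA, the replication clamp, had 2689 and 1128 (-1.15, -1.25 to -1.05). In the shADAR1 input 4 of 14 were lower, with a median of -0.68. For the RNA-seq pair 0 of 14 were called, with a median of 0.37 and RRM2 highest at 0.94 (5248 and 13226 counts). The part of S-phase genes in the members' values was not tested.

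Replication-independent histones leaned the same way as the members in these 3 comparisons. Of 11 with enough counts, 10 lay above 0 in the RNA-seq knockdown (median 0.62). In the shADAR1 input 10 lay below 0 (median -0.74), as did 10 in the shHuR input (median -1.13). Called were 2 higher in the RNA-seq knockdown (H1-10 at 1.99 and H2AX at 1.12), 4 lower in the shADAR1 input and 6 lower in the shHuR input. CENPA, the centromeric H3, was the lowest in the shHuR input (487 and 6 counts; -6.24, -7.70 to -5.11), and H2AJ the highest (668 and 1228 counts; 0.98, 0.84 to 1.12). In the precipitates 4 of 12 fell and 2 rose by edgeR. H2AZ2 was recovered above its input in shControl (5190 and 10940 counts; 1.87, 1.82 to 1.91) and H2AZ1 below it (7050 and 561 counts; -2.86, -2.99 to -2.74).

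Histone chaperones, which carry histones to DNA, numbered 13. In the RNA-seq knockdown 0 were higher and 1 lower, ATRX (12724 and 6083 counts; -1.45, -1.50 to -1.41). In the shADAR1 input 3 were lower and in the shHuR input 6, led by ASF1B, a chaperone of dividing cells (556 and 18 counts; -4.85, -5.61 to -4.17).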

How the data were processed

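RSEM 1.2.3 made the authors' deposited counts per gene on hg19, according to the submitters' processing notes, which add GRCh37 for the precipitation experiment. These expected counts are whole numbers and were used as deposited. The deposited FPKM values of the RNA-seq file are scaled by the authors to length and depth. Libraries were made with a KAPA RNA HyperPrep kit, per the labels' protocols. The aligner, annotation release and strand setting are not given in the sources used here, so reads of a gene and an antisense partner may not be told apart.

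Symbols were matched for 43176 of 57736 IDs (74.8%). Ratios used TMM-scaled counts, computed over the RNA-seq pair, over the 3 inputs, or over 6 libraries for precipitate against input, with exact conditional binomial intervals at 95%. Calls and medians added a prior count of 2, and 0 counts were replaced by a floor of 3 counts for bounds. Medians with such genes at their bound were the same to 2 decimals. The tests were edgeR 4.0.16 quasi-likelihood fits over all genes, Benjamini-Hochberg adjusted at 0.05, with 1 and 2 residual degrees of freedom. The pairing in them comes from the labels: both libraries of a block share an experiment or a line. DESeq2 1.42.0 served as an alternative. These p-values reflect the spread of single libraries only. The ratio and test functions were tested on simulated data.

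Members and lists were chosen with earlier results of these data known. Named genes were the 2 most abundant members of each family, those with described poly(A) forms, the 2 highest and lowest in each comparison, those past the edgeR threshold (up to 10 in each direction) and up to 4 of each list. Some others that stand as exceptions or partners were named after their values were seen. Promoters come from RefSeq on GRCh38.p14 and transcripts from GENCODE 29, a later annotation than the files', so gene models can differ from those counted.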

Additional observations from a re-analysis of the deposited data

Results flagged for a closer look

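Histone genes went in opposite directions in the 2 comparisons of ADAR1 knockdown, and the difference was not tested. The median log2 ratio of members was 1.05 in the RNA-seq pair and -1.15 in the input pair. By family the pairs of medians were 1.2 and -1.39 for H1, 1.01 and -1.27 for H2A, 1.60 and -0.77 for H2B, 0.95 and -1.93 for H3, and 1.18 and -1.09 for H4. Of 30 members with enough counts in both, 12 were called higher with knockdown in the RNA-seq but lower with shADAR1 in the inputs, and 0 were called in the same direction. Among all 12250 genes with enough counts in both, 156 (1.27%) were higher in the RNA-seq and lower in the input. These 12 were H1-3 (1.55 and -1.81), H1-4 (1.2 and -1.39), H1-5 (1.12 and -1.94), H2AC13 (1.01 and -1.78), H2AC18 (1.02 and -1.27), H2BC13 (1.53 and -1.55), H2BC15 (1.78 and -1.13), H2BC18 (1.60 and -1.13), H3C15 (1.09 and -1.93), H4C11 (1.39 and -1.18), H4C3 (1.30 and -1.03) and H4C8 (1.05 and -1.16), all with prior count 2. With the length trend removed, only H1-3 (1.11 and -1.54) and H3C15 (1.01 and -1.88) of them stayed past 2-fold in both pairs. The others kept opposite signs but not both calls, as with H4C8 (0.19 and -0.65). H2AC18 and H3C15 are among the genes with uncertain values. The share of all genes called in the same direction is not given here.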

How the results depend on the processing

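Medians and counts of called members stayed within the spread of members or within 1.5 times under 191 of 209 alternatives. For medians this is a loose measure, because the spread of members is wide (-5.67 to 0.87 in the shHuR input). Shares of all genes called are not given for these alternatives. With the length trend removed, members higher in the RNA-seq knockdown numbered 9 (median 0.50), members lower in the shADAR1 input 11, and members higher in the shHuR input 1. In the precipitates of shControl, shADAR1 and shHuR, 3, 4 and 7 members were then higher, 12 (shADAR1) and 2 (shHuR) lower, and the medians were -1.51, -0.64 and, with its direction turned, 0.50. Of the called members, H2AC6 turned to 0.02 in shControl, and H3C4 and H4C16 to 0.09 and 0.35 in shADAR1. Of members not called, 2, 5 and 6 turned in the 3 lines, among them H2BC13 (-0.83 to 1.07) and H2BC5 (-0.49 to 1.24) in shControl and H2BC11 (-0.29 to 1.17) and H2BC18 (-0.44 to 1.05) in shADAR1. Deposited FPKM left 13 members higher in the RNA-seq knockdown. Without the filter on low counts, 1 member was higher in the shHuR input and 2 in the shADAR1 precipitate. By total counts, 2 members were higher and 15 lower in the shHuR precipitate, where the median of all genes was then -1.25. H4C8 turned to -0.80 by total counts in the test over lines. That test called 12 members lower without the replicate block (the pairing by line), 1 higher (H2AC11) without the shControl line, and H2AC11 turned to -0.97 without the shHuR line; leaving out a line left 14 to 29 members lower. The block changed no call of the knockdown test. The cause of these shifts was not tested. Summing H3C13, H3C14 and H3C15, or leaving out the 6 members that share reads (chosen after seeing the data), kept each count within 1.5 times. Depth limits members with few counts, such as H2AC25 and H2BC26.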
